A study of Mus musculus with 2 samples.

Results

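Of the genes in the deposited table (32544), 8 were followed here: the MHC class I heavy chains H2-K1, H2-D1, H2-Q4, H2-Q6, H2-Q7, H2-T22 and H2-T23, and B2m, the light chain that all of them bind. They were chosen by symbol, and all 8 had a row in both libraries. The cells were murine bone marrow-derived monocytes (BMDMs) pushed toward osteoclasts (OCs), which derive from myeloid cells and resorb bone, and taken 24 h after RANKL. The medium held M-CSF at 50 ng/ml and RANKL at 100 ng/ml. One scRNA-Seq library was of a genotype labelled only CONTROL and the other of LysM-Cre;Arid1afl/fl, called control and mutant here. Both received the same cytokines. The methods of the study give an age of 4 to 6 weeks for mice used as bone marrow donors, without naming these libraries, and the number of animals behind each library was not given in the sources used here. LysM-Cre is a recombinase expressed from the lysozyme M locus of myeloid cells, so cells in the dish that never used that locus would keep Arid1a, a gene of the BAF family of chromatin remodelers. With 1 library per group there was no test across samples and no p-value, and the 95% intervals below cover counting error alone.

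MHC class I molecules carry peptides from the inside of a cell to its surface. Each consists of a heavy chain, which holds the peptide in a groove, and beta-2 microglobulin, the product of B2m, without which most heavy chains do not reach the surface. H2-K1 and H2-D1 are the classical heavy chains, highly polymorphic and recognized by cytotoxic T cells. The others are non-classical and lie in the Q and T regions of the mouse MHC. H2-T23 encodes the heavy chain of Qa-1, which presents leader peptides of other class I chains to NKG2 receptors of natural killer cells. H2-Q7 belongs to the Qa-2 group, and H2-T22 is recognized by a subset of gamma-delta T cells without a bound peptide. Class I genes of many cell types respond to interferons through an interferon-stimulated response element (ISRE), which lies in the classical promoters beside a site for NF-kB (kB) and is read by interferon-activated transcription factors, while NLRC5 acts as a co-activator of the same promoters.

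The 7 heavy chains lie on chromosome 17 and B2m on chromosome 2 (GRCm39, GENCODE M39). H2-K1 stands apart at chr17:34214987-34219321 on the minus strand. H2-D1 (chr17:35481691-35486475), H2-Q4 (chr17:35598586-35604274), H2-Q6 (chr17:35643777-35655332) and H2-Q7 (chr17:35658131-35662749) follow each other on the plus strand. H2-T23 (chr17:36340229-36345571) and H2-T22 (chr17:36348020-36353650) are neighbours on the minus strand, and B2m is at chr2:121977957-121983594 on the plus strand.

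The 250 bases before the RefSeq start of H2-D1, H2-Q7, H2-T22, H2-T23 and B2m are shown because they show both arrangements of ISRE and kB letters found among the members. They come from the RefSeq promoter table (GRCm38.p6). The same letters were found by exact match in GRCm39 on chromosome 17 for the H2 genes and on chromosome 2 for B2m. Capitals mark matches, on either strand, to GAANNGAAA (the short ISRE), GAAA followed after any 2 bases by GAAA (the long ISRE) or GGGNNTTCC (the kB site).
H2-D1: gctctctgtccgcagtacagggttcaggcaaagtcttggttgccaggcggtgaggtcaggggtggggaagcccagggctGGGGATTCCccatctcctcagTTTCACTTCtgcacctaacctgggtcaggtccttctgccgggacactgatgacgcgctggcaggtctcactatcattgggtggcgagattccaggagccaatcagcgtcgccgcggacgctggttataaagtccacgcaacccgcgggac
H2-Q7: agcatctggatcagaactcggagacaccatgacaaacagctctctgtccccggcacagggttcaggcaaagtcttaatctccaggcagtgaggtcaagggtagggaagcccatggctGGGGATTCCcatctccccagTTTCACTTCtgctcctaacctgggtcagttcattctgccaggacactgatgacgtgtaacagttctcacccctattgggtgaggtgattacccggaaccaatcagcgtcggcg
H2-T22: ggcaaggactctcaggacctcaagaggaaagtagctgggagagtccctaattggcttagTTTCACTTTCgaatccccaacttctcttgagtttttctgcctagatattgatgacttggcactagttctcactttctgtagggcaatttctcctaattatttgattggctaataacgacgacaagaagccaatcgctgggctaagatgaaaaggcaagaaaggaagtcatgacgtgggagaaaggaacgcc
H2-T23: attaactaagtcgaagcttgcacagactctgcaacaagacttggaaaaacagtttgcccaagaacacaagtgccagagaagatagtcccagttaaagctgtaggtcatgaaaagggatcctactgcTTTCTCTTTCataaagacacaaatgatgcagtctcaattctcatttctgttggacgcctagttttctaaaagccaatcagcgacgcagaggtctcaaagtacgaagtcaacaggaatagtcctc
B2m: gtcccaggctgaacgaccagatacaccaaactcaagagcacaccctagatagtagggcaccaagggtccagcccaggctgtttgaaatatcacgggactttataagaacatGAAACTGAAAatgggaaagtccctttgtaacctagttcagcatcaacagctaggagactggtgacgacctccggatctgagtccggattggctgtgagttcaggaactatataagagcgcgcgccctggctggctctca

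The short ISRE and the kB site both occurred in 5 of the 8 windows, those of H2-K1, H2-D1, H2-Q4, H2-Q6 and H2-Q7, always in that pairing and with the ISRE letters TTTCACTTC. Of all 32841 RefSeq windows of this length, 6.31% held the short ISRE and 4.98% the kB site. Aligned in pairs, the windows of H2-D1, H2-Q4, H2-Q6 and H2-Q7 were 62.6% to 82.2% identical. That of H2-K1 was 52.1% to 60.6% identical to them. The 5 windows are thus related sequences and not independent cases to set against those shares. The 3 remaining members, H2-T22, H2-T23 and B2m, held the long ISRE instead, as did 2.98% of all windows, and no kB match. The long form has 1 more A before the spacer, so a match to it is not also a match to the short form in the same register. CCAAT, on either strand, was in all 8 windows and in 33.9% of all windows. In H2-D1 the ISRE began 150 bases before the start, in H2-Q7 113, in H2-T22 191, in H2-T23 124 and in B2m 139. A match is a description of letters and not a bound site, and the letters are of the reference genome, not read from these cells. The windows of H2-Q6 and H2-Q7 were each found at 2 places of chromosome 17. RefSeq and GENCODE starts differ for some members. The windows of H2-D1 (chr17:35481820-35482069) and H2-T23 (chr17:36343594-36343843) lay inside the GENCODE genes given above. Those of H2-Q4, H2-Q6, H2-T22 and B2m overlapped their gene in part. H2-K1 had 2 RefSeq starts, and the first listed was used.

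The control library gave 6269 cells with 163618835 UMIs and the mutant library 5663 cells with 131469887 UMIs, after removal of barcodes with fewer than 500 genes or more than 10% mitochondrial UMIs. Median depth was 23978 and 21734 UMIs per cell, and 7 of the kept barcodes occurred in both libraries. Arid1a stood at 51.9 CPM (UMIs per 1e6 UMIs of the library) in control and 20.4 CPM in mutant, a log2 ratio of -1.35. The 3′ counts can include transcripts of a recombined allele. The monocytic markers Lgmn, Dab2, Csf1r and Cd68 were between 129 and 469 CPM in control and between 228 and 603 CPM in mutant. The T cell marker Cd3e had 0 UMIs in both libraries, which allows up to 0.0183 and 0.0228 CPM. Here and below, the limit for a count of 0 is that of 3 counts and not an exact interval. The neutrophil marker S100a8 was at 111 CPM in control and 880 CPM in mutant, and class II H2-Aa at 1.74 and 18.3 CPM. In sums of this kind, fewer cells with a transcript and fewer transcripts per cell cannot be told apart, and the shares of cells are therefore given further on.

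All 8 members were higher in the mutant library, and B2m, H2-D1 and H2-K1 were the most abundant of them in both. A UMI stands for 1 captured 3′ end whatever the length of the transcript, so length does not enter when levels in CPM are set beside each other. The part of the 3′ end shared with other genes, given below, differs between members and limits such comparisons. Together the 8 members took 0.277% of the UMIs in control and 0.763% in mutant. H2-K1 was at 571 CPM (568 to 575) in control and 1538 CPM (1531 to 1544) in mutant, a 2.69-fold difference. H2-D1, the more abundant classical heavy chain, was at 957 CPM (952 to 962) and 2190 CPM (2182 to 2198), which is 2.29-fold. The summed classical heavy chains had a log2 ratio of 1.29 (1.28 to 1.29). There were 1.68 UMIs of H2-D1 for each UMI of H2-K1 in control and 1.42 in mutant.

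The non-classical heavy chains were scarcer and differed by more. H2-T23 was at 27.3 CPM (26.5 to 28.1) in control and 162 CPM (160 to 165) in mutant, a 5.94-fold difference. H2-T22, next to it on the chromosome, was at 30.8 CPM (29.96 to 31.7) and 84.1 CPM (82.5 to 85.7), or 2.73-fold, close to the fold of H2-K1. The order of this pair was thus turned round between the libraries, with H2-T22 slightly higher in control and H2-T23 clearly higher in mutant. H2-Q4 was at 10.4 CPM (9.91 to 10.9) in control and 52.8 CPM (51.6 to 54.1) in mutant, a 5.08-fold difference. H2-Q7 was at 2.81 CPM (2.56 to 3.08) and 56.9 CPM (55.6 to 58.2), from 460 and 7478 UMIs, a 20.2-fold difference. H2-Q6 rested on 68 UMIs in control and 1841 in mutant, which is 0.416 CPM (0.323 to 0.527) and 14.0 CPM (13.4 to 14.7). The ratio of H2-Q6 was the widest of the 8, at 33.7-fold, with a log2 interval of 4.73 to 5.45.

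B2m was at 1168 CPM (1163 to 1174) in control and 3532 CPM (3522 to 3542) in mutant, a 3.02-fold difference (log2 1.60). There were 0.730 UMIs of B2m per heavy-chain UMI in control and 0.862 in mutant, so the light chain differed by slightly more than the summed heavy chains, which went from 1600 to 4098 CPM (log2 1.36).

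**Figure D1:**
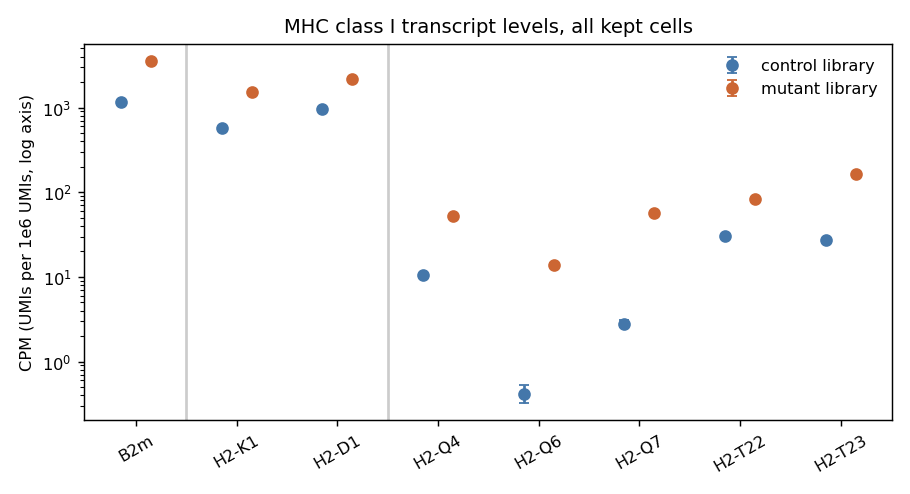
Level of each member in the control (blue) and mutant (orange) library over all kept cells, in CPM on a log axis, with 95% exact Poisson intervals that are mostly smaller than the points. Grey lines separate B2m, the classical and the non-classical heavy chains; B2m goes from 1168 to 3532 CPM and H2-Q7 from 2.81 to 56.9 CPM.

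Background for these ratios came from the 5219 genes whose mean over both libraries was 20 CPM or more. Of these, 5.65% were at least 2-fold higher in the mutant library and 1.13% at least 2-fold lower. Their median log2 ratio was 0.022, and the middle 90% ran from -0.61 to 1.07. All members but H2-Q6, whose mean was 7.21 CPM, passed the mean of 20 CPM, and those 7 were at least 2-fold higher. H2-Q4 and H2-Q7 passed only through their mutant level, whereas 5 members (H2-K1, H2-D1, H2-T22, H2-T23 and B2m) were above 20 CPM in both libraries. In the order of the 5219 log2 ratios from the highest, H2-Q7 was number 5, H2-T23 number 27, H2-Q4 number 40, B2m number 103, H2-T22 number 136, H2-K1 number 138 and H2-D1 number 210. H2-T22 and H2-K1 were close in that order with overlapping intervals of the log2 ratio, 1.40 to 1.497 and 1.42 to 1.44.

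The summed non-classical heavy chains were at 71.8 CPM (70.5 to 73.1) in control and 370.2 CPM (367 to 374) in mutant, a log2 ratio of 2.37 (2.34 to 2.40). This was larger than the classical log2 ratio by 1.08 (1.05 to 1.11). The share of non-classical transcripts among all heavy-chain UMIs was accordingly 4.49% (4.41 to 4.56) in control and 9.03% (8.96 to 9.11) in mutant. In absolute terms the classical genes made up most of the difference, with 88.1% of the 2498 CPM that separated the heavy-chain sums, H2-D1 alone giving 49.4%. The classes were not uniform, since the log2 ratio of non-classical H2-T22 (1.45) lay with the classical genes.

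The make-up of the non-classical transcripts differed too. H2-T22 gave 42.9% of the non-classical UMIs in control and 22.7% in mutant. H2-Q7 gave 3.92% and 15.4%, and H2-Q6 0.579% and 3.78%. The part of H2-T23 went from 38.1% to 43.9%, and that of H2-Q4 was alike, at 14.5% and 14.3%.

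Counting limits bear on some members. Of the 91-base windows in the last 500 bases of the transcript, where 3′ reads fall, none was shared with another gene for H2-K1, H2-D1 and B2m. For H2-T22, 25.9% were shared with H2-T10, which had no row of that symbol, and for H2-Q7 5.85% were shared with H2-Q5. The shared part was 10.98% for H2-Q4, 13.7% for H2-Q6 and 16.6% for H2-T23. The genes sharing windows with H2-Q6 included H2-Q4, itself a member, at 10.4 CPM in control against 0.416 CPM for H2-Q6. It was not stated how reads of such windows were assigned or whether strand was used. H2-T22 and H2-T23 overlap A930015D03Rik, H2-Q4 overlaps Gm11131 and B2m overlaps Patl2, all on the opposite strand and all in the gene table.

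The members were then followed over cell states. The osteoclast transcripts Acp5, Ctsk, Dcstamp and Mmp9 defined an OC gate and the mitotic transcripts Aurka, Cdk1, Mki67 and Top2a a cycling gate. A cell entered a gate when 3 or more of its UMIs, after thinning to 5000, were of that set. Cells rich in neutrophil, stromal or class II transcripts were set apart first. Neither gate held 3337 cells in each library. The cycling gate alone held 2158 control and 1673 mutant cells, the OC gate alone 324 and 126, and both gates 255 and 55. Levels within a state use all UMIs of its cells.

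Every member was higher in the mutant library in each of these 4 states. In cells of neither gate, the classical heavy chains were at 1620 CPM in control and 3864 CPM in mutant (log2 ratio 1.25). In the cycling gate alone they were at 1472 and 3472 CPM (1.24). In the OC gate alone the levels were 1385 and 4390 CPM (1.66), and in cells of both gates 1224 and 3334 CPM (1.45). The non-classical heavy chains had log2 ratios of 2.24 in neither gate, 2.45 in the cycling gate alone, 2.73 in the OC gate alone and 2.78 in both gates. The excess of the non-classical over the classical log2 ratio lay between 0.99 (0.95 to 1.03), in neither gate, and 1.33 (1.15 to 1.51), in both gates. B2m had log2 ratios of 1.55, 1.57, 2.01 and 1.81 in the same order of states.

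H2-Q4 was the member whose ratio varied most between states among those with over 50 UMIs in every one. Its log2 ratio was 2.26 (2.15 to 2.37) in neither gate and 3.33 (2.89 to 3.78) in the OC gate alone. H2-T23 varied least, with log2 ratios between 2.51 and 2.64. H2-Q6 had only 2 UMIs in the 324 control cells of the OC gate alone and 6 in the 255 control cells of both gates, so its ratios there are loose (4.68 to 9.67 and 3.53 to 6.36).

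**Figure D2:**
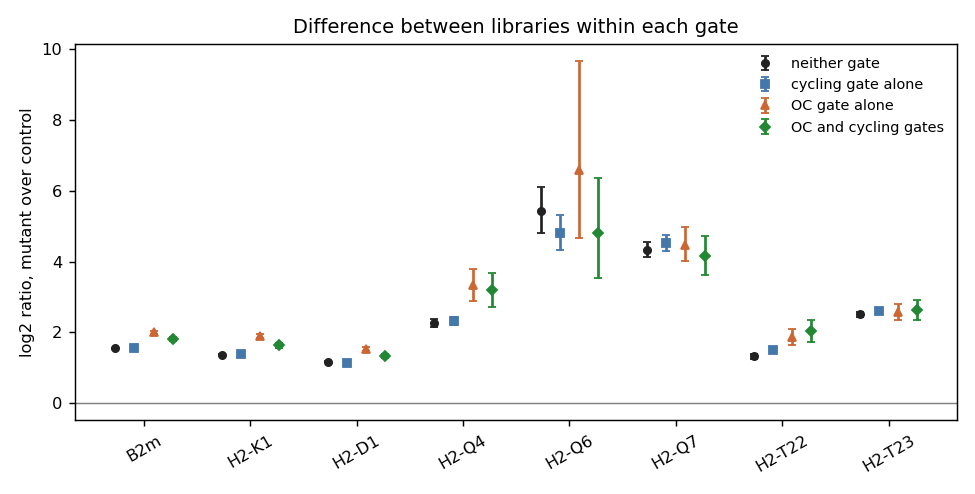
Log2 ratio of mutant over control for each member within cells of neither gate, the cycling gate alone, the OC gate alone and both gates, with 95% exact conditional intervals (counting error only). All points lie above 0; H2-T23 stays between 2.51 and 2.64, and the H2-Q6 interval in the OC gate alone spans 4.68 to 9.67.

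Within the control library, cells of the OC gate, cycling or not, carried less classical heavy-chain transcript than cells of neither gate, with a log2 ratio of -0.31 (-0.33 to -0.29). The non-classical sum gave -0.31 (-0.40 to -0.22) and B2m -0.39 (-0.42 to -0.37). H2-Q7 went the other way at 0.77 (0.37 to 1.15), but with cells thinned to 2000 UMIs it was -0.38. Within the mutant library the same contrast gave 0.056 (0.034 to 0.077) for the classical sum and 0.23 (0.17 to 0.30) for the non-classical sum. The classical value turned to between -0.11 and -0.020 under 3 other settings of the gate, and the non-classical value to -0.072 with gates on unthinned counts, so no direction was read from the mutant contrast.

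Between the cycling gate alone and neither gate, the non-classical genes did not go the same way. H2-T22 was lower in cycling cells by -0.46 (-0.55 to -0.37) on the log2 scale in control and -0.27 (-0.33 to -0.21) in mutant, and H2-T23 by -0.30 and -0.21. H2-Q4 was higher in cycling cells by 0.41 (0.27 to 0.56) in control and 0.48 (0.40 to 0.55) in mutant, and H2-Q6 by 1.13 (0.33 to 1.962) and 0.52 (0.38 to 0.66). H2-Q7 had no clear direction in control, at 0.081 (-0.22 to 0.38), and was higher in mutant, at 0.27 (0.20 to 0.34). The classical sum was slightly lower in cycling cells, at -0.14 in control and -0.15 in mutant. Cycling cells were deeper, with medians of 27118.5 and 25601 UMIs against 22160 and 21357 in neither gate, and the part of depth in these contrasts was not tested.

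Cells set apart by other markers bracketed the levels. In the 48 mutant cells of the class II gate, chosen on H2-Aa, H2-Ab1 and H2-Eb1, the classical sum was at 5359 CPM (5185 to 5537) and the non-classical sum at 779 CPM (713 to 849). H2-Q7 reached 227 CPM (152 UMIs) and H2-Q6 82.2 CPM (55 UMIs) there, against 51.1 and 11.5 CPM in mutant cells of neither gate. The 89 mutant cells of the neutrophil gate had 2165 CPM (2081 to 2252) of classical and 237 CPM (210 to 267) of non-classical transcript. The control library had 7 and 19 cells in these gates, with 2968 and 722 CPM of classical transcript. In the 19 control cells of the neutrophil gate H2-Q4 and H2-Q6 had 0 UMIs, which allows up to 15.8 CPM each. Without the cells of the neutrophil, stromal and class II gates the classical, non-classical and B2m ratios stayed within the counting intervals given above.

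Because class I genes respond to interferon and interferon-stimulated transcripts were higher in the mutant library (all 12 genes of a list of them at least 2-fold, median log2 ratio 2.07, against 5.65% of all genes at that level), cells were grouped by their UMIs over those 12 genes at 5000 UMIs per cell. The 12 genes were Ifit1, Ifit2, Ifit3, Rsad2, Isg15, Irf7, Oasl2, Ifi44, Usp18, Cmpk2, Rtp4 and Xaf1, and none is a member. Ifi44, Ifit2 and Cmpk2 were at 2.75, 11.8 and 14.7 CPM in control and passed the mean of 20 CPM only through their mutant level. The groups were unevenly filled. In control, 3732 cells had 0 to 2 such UMIs, 2027 had 3 to 9, 268 had 10 to 29 and 47 had 30 or more. In mutant the numbers were 81, 1830, 3057 and 223.

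Within each library the members were higher in cells with more interferon-stimulated UMIs. From the lowest to the highest group, the control library gave log2 differences of 0.55 (0.48 to 0.62) for H2-D1, 0.80 (0.71 to 0.88) for H2-K1 and 0.82 (0.76 to 0.88) for B2m. The same step was 1.81 (1.51 to 2.10) for H2-T23, 2.23 (1.79 to 2.63) for H2-Q4, 2.72 (1.94 to 3.41) for H2-Q7 and 2.72 (2.502 to 2.93) for H2-T22, so these non-classical genes had steeper steps than the classical ones in control. In mutant it was 0.87 for H2-D1, 1.25 for H2-K1, 0.86 for B2m, 1.24 for H2-T23, 2.81 for H2-Q4, 2.55 for H2-Q7 and 2.69 for H2-T22, and H2-T23 was there no steeper than H2-K1. The step of H2-Q6 was 3.17 (1.22 to 4.66) in control and 4.59 (3.35 to 6.23) in mutant, from 4 control UMIs in the highest group and 5 mutant UMIs in the lowest. H2-T22 had, of the non-classical genes, the smallest difference between the libraries over all cells.

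Between the libraries, differences remained inside each group. The classical sum was at 1416 CPM in control and 2807 CPM in mutant in cells with 0 to 2 interferon-stimulated UMIs (log2 ratio 0.99, 0.95 to 1.03), at 1674 and 3325 CPM with 3 to 9 (0.99, 0.98 to 1.00), at 1943 and 3885 CPM with 10 to 29 (1.00, 0.97 to 1.02) and at 2214 and 5698 CPM with 30 or more (1.36, 1.31 to 1.42). These are below the 1.29 of all cells in the first 3 groups. There they were less alike under other settings of the grouping, though still below 1.29. They were 1.14, 1.05 and 1.14 with cells thinned to 2000 UMIs, and 1.17, 1.10 and 1.21 without Irf7 and Isg15 in the list. The non-classical log2 ratios were 1.87 (1.72 to 2.01), 1.83 (1.78 to 1.88), 1.19 (1.11 to 1.28) and 1.62 (1.47 to 1.78), each below the 2.37 of all cells. B2m gave 1.43, 1.32, 1.24 and 1.47. The groups do not match the libraries fully, since the mean number of these UMIs was 0.898 in control and 1.60 in mutant in the lowest group, and 4.55 and 6.77 in the group with 3 to 9.

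In the group with 10 to 29 the means were nearly matched, at 14.9 and 15.2 UMIs. H2-T22 was at 93.2 CPM in control and 89.4 CPM in mutant, a log2 ratio of -0.06 (-0.18 to 0.06), so no difference was detectable at this depth. H2-Q7 was at 7.18 and 61.0 CPM (log2 ratio 3.09, 2.68 to 3.52) and H2-T23 at 46.5 and 167 CPM (1.85, 1.69 to 2.01). H2-Q4 was at 22.6 and 57.3 CPM (1.34, 1.11 to 1.59). H2-K1 and H2-D1 were near 2-fold, with log2 ratios of 1.06 and 0.96. In the other groups H2-T22 was higher in mutant, by log2 0.86, 0.77 and 0.83. The H2-T22 value in the group with 10 to 29 was 0.10 (-0.10 to 0.31) with cells thinned to 2000 UMIs and 0.095 (-0.070 to 0.26) without Irf7 and Isg15 in the list, and that of H2-Q7 was 3.17 and 4.39, settings applied to these genes after their values were seen.

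**Figure D3:**
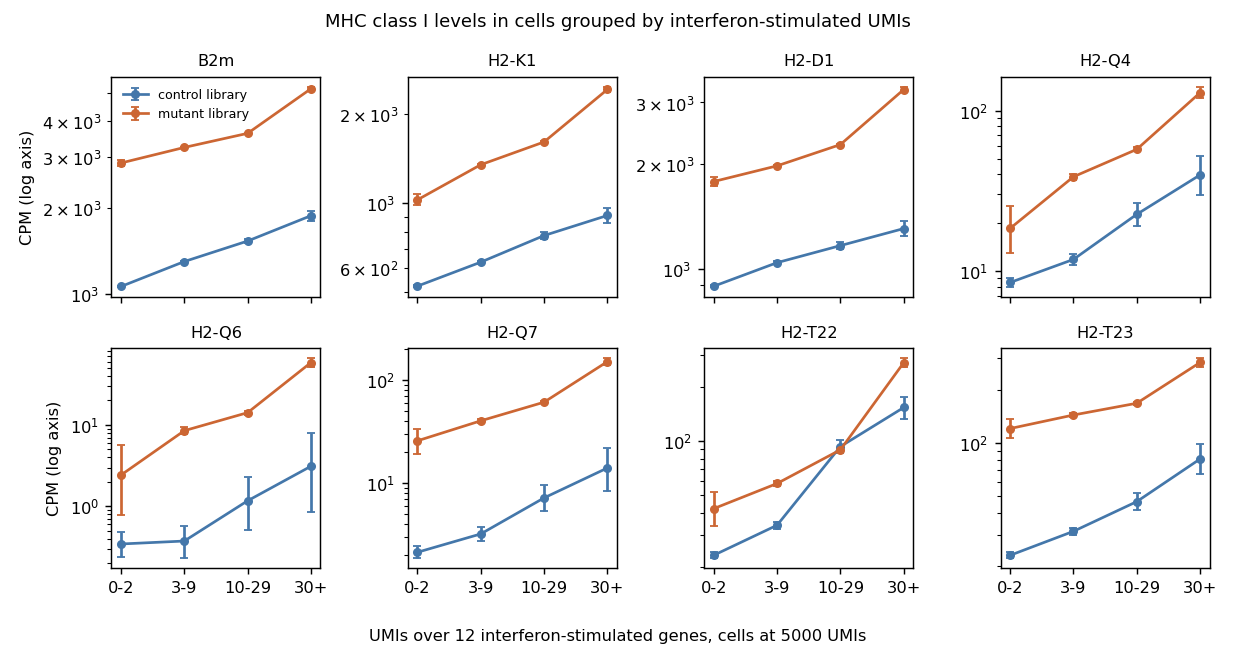
Level of each member in CPM (log axis, own scale in each panel) in cells grouped by their UMIs over 12 interferon-stimulated genes, control in blue and mutant in orange, with 95% exact Poisson intervals. The curves of 7 members stay apart in every group, while those of H2-T22 meet in the group with 10 to 29 UMIs, at 93.2 CPM in control and 89.4 CPM in mutant.

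Cells of the mutant library were also divided by transcripts other than the interferon list. Cells in which no Arid1a UMI remained after thinning (4689) had 3737 CPM of classical and 367 CPM of non-classical transcript, and the 502 cells with at least 1 Arid1a UMI had 3683 and 384 CPM. Those levels are close to each other and far above the control library. In control, 4743 cells also had no Arid1a UMI after thinning, and 1331 had at least 1. The split therefore cannot separate cells that lost Arid1a from cells that kept it. Ly6a, an interferon-responsive surface antigen of mouse monocytes, divided the non-classical genes further: mutant cells with 0 Ly6a UMIs (1443) had 3496 CPM of classical transcript, 303 CPM of non-classical transcript and 29.6 CPM of H2-Q7, and those with at least 1 (3748) had 3823, 394 and 66.5 CPM. B2m was alike in both mutant groups, at 3531 and 3539 CPM. The interferon list itself differed across this split, at 2261 and 2779 CPM in mutant. In control, cells with 0 Ly6a UMIs (5194) had 67.2 CPM of non-classical transcript, 2.48 CPM of H2-Q7 and 1146 CPM of B2m. Control cells with at least 1 (880) had 100, 4.72 and 1307 CPM.

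At an equal 5000 UMIs per cell, 6101 control and 5312 mutant cells could be compared one by one, and 168 and 351 were too shallow. Nearly every cell had the classical and light chains, H2-K1 in 91.3% of control and 99.2% of mutant cells, H2-D1 in 98.0% and 99.9%, and B2m in 98.8% and 99.98%. The number of heavy-chain UMIs per cell had a median of 8 in control (5th to 95th percentile 3 to 15) and 19 in mutant (8.55 to 39). No heavy-chain UMI at all was found in 23 control cells and in 0 mutant cells. The 5th percentile of mutant cells thus lay above the control median.

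For the non-classical genes the share of cells with a UMI differed widely. H2-T23 was found in 12.4% (11.6 to 13.2) of control and 53.0% (51.7 to 54.4) of mutant cells, H2-T22 in 13.8% (12.9 to 14.7) and 31.9% (30.7 to 33.2), and H2-Q4 in 4.90% (4.37 to 5.47) and 23.3% (22.2 to 24.5). H2-Q7 was found in 1.08% (0.838 to 1.37) and 22.5% (21.4 to 23.7), and H2-Q6 in 0.164% (0.0786 to 0.301) and 7.04% (6.37 to 7.76). Without thinning these shares of H2-T23, H2-T22, H2-Q4, H2-Q7 and H2-Q6 were 45.6%, 47.3%, 21.5%, 5.54% and 0.925% in control and 87.9%, 72.0%, 56.8%, 49.2% and 18.5% in mutant. Class I is made by nearly all nucleated cells, so no cell type in the culture could serve as one that lacks it. In the cells of the neutrophil gate with at least 5000 UMIs, H2-Q7 was found in 5.33% (1.47 to 13.1) of 75 mutant cells, against 21.1% (19.7 to 22.5) in mutant cells of neither gate, and in 0 of 17 control cells, which allows a share of up to 17.6%. Median depth was 10828 UMIs in those 75 cells and 21357 in the mutant cells of neither gate. The contribution of free RNA to the shares was not tested.

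None of the 5 non-classical genes had a UMI in 71.4% of control and 21.8% of mutant cells. At least 3 of them were found together in 12 control cells, 11 with 3 and 1 with 4, and in 775 mutant cells. H2-Q6 and H2-Q7, neighbours on the chromosome, shared cells in the mutant library, where 16.6% (14.5 to 18.8) of cells with an H2-Q7 UMI also had an H2-Q6 UMI, against 4.28% (3.68 to 4.94) of cells without. In control none of the 66 cells with an H2-Q7 UMI had an H2-Q6 UMI, too few cells to judge the pair there. The other neighbours, H2-T22 and H2-T23, were more loosely tied, with H2-T23 found in 57.9% (55.5 to 60.3) of mutant cells with H2-T22 and 50.8% (49.1 to 52.4) of those without. H2-Q7 and H2-T23, which are not neighbours, gave much the same. H2-T23 was in 57.9% (55.0 to 60.7) of mutant cells with H2-Q7 and 51.7% (50.1 to 53.2) of those without. A link between shared cells and position was not tested. Spread between cells was wider than Poisson counting for every member in mutant, with a variance over mean of 3.45 for B2m, 2.95 for H2-D1, 2.64 for H2-K1, 1.59 for H2-Q7 and 1.18 for H2-Q4. In control the values were 1.93, 1.65, 1.51, 1.13 and 1.03 in the same order, and 0.998 for H2-Q6. Mean counts were higher in mutant, and their part in the spread was not tested.

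**Figure D4:**
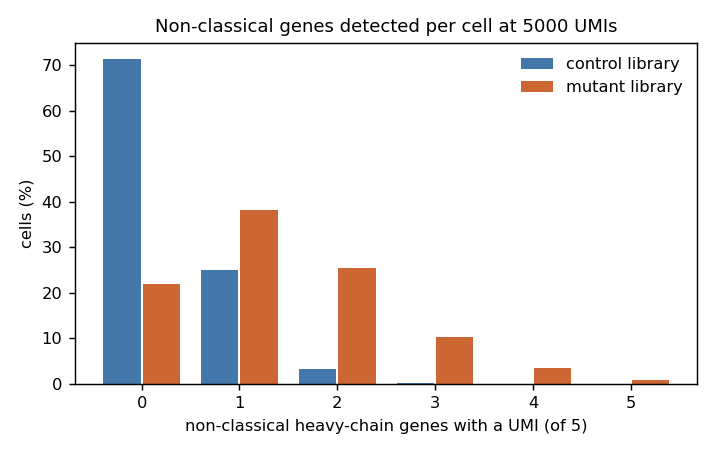
Share of cells (%) by how many of the 5 non-classical heavy-chain genes had a UMI at 5000 UMIs per cell, control in blue and mutant in orange. The control library piles up at none (71.4%), and the mutant library spreads over 1 gene (38.2%), 2 genes (25.4%) and more.

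Other genes of antigen presentation were counted from fixed lists. Of 13 genes that make and load class I peptides, 12 passed the mean of 20 CPM, 5 were at least 2-fold higher in mutant and none was 2-fold lower, with a median log2 ratio of 0.91. Erap1, an aminopeptidase that trims peptides and one of the 5, passed only through its mutant level, at 16.2 and 38.3 CPM. Over all genes at that level 5.65% were 2-fold higher and the median was 0.022. The highest was Tapbp, which encodes tapasin, the bridge between the peptide transporter and class I, at 166 and 430 CPM (1.37). The lowest was Calr, encoding the chaperone calreticulin, at 822 and 831 CPM (0.015). Tap1, a subunit of that transporter, went from 22.7 to 53.4 CPM (1.23) and Psmb8, an immunoproteasome subunit, from 269 to 451 CPM (0.74). Of 12 transcription factors and co-activators of class I genes, 8 passed, 2 were at least 2-fold higher and none lower (median 0.45). They ran from Rfxap, a subunit of the RFX complex, at -0.21 to Stat2, a transcription factor of interferon signalling, at 2.44. Stat2 passed only through its mutant level, at 9.90 and 53.7 CPM. Nlrc5 (4.66 to 12.1 CPM, 1.37) and Irf1 (9.94 to 24.8 CPM, 1.32) lay below a mean of 20 CPM.

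Of 15 other non-classical heavy-chain symbols, 12 were in the gene table and only H2-M3, which presents formylated peptides, passed the mean of 20 CPM, at 10.2 and 34.7 CPM (log2 1.76), through its mutant level. Of 11 class I-like genes outside the MHC, 10 were in the table and only Raet1e, a ligand of the NKG2D receptor, passed, at 21.0 and 32.8 CPM (0.64). Of 11 class II genes only Cd74, the invariant chain, passed, at 21.7 and 63.9 CPM (1.56). H2-Aa, a class II chain, had a log2 ratio of 3.40 from 1.74 to 18.3 CPM, and the remaining symbols of these 3 lists lay below a mean of 20 CPM.

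Protein-coding genes within 100 kb of a member gave a local background. Outside the lists above there were 36 of them in the table and 15 that passed the mean of 20 CPM, of which 2 were at least 2-fold higher in mutant and none 2-fold lower, with a median log2 ratio of -0.15. Over all genes at that level 5.65% were 2-fold higher. The lowest was Wdr46, a ribosome biogenesis factor near H2-K1, at -0.88. It passed only through its control level, at 27.5 CPM in control and 15.0 CPM in mutant. The highest was Lst1, a leukocyte-specific transcript near H2-D1, at 1.91 (138 to 518 CPM). The other one past 2-fold was Daxx, near H2-K1, at 1.05.

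The genes whose pattern was most like that of the members were taken over 11 groups of cells, each a library and state with at least 50 cells. These groups share libraries, so the correlations mainly carry the difference between the libraries and are given as a description. H2-K1 was nearest to Xaf1 (r = 0.996) and Tapbp (0.991), and H2-D1 to Psme1 (0.997), Sdf4 (0.995) and Dtx3l (0.989). B2m was nearest to Clec4a1 (0.992), Ifi47 (0.991) and Xaf1 (0.989). H2-T23 was nearest to Ms4a4c (0.988), Ifi47 (0.984) and Ly6i (0.983). H2-T22 and H2-Q7 shared their nearest gene, Oasl1 (0.984 and 0.971), followed by Psme1 (0.980) and Ptafr (0.980) for H2-T22 and by Pltp (0.968) and Psmb8 (0.966) for H2-Q7.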

How the data were processed

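Single-cell mRNA sequencing of 1 control and 1 LysM-Cre;Arid1afl/fl library of BMDMs was performed with a 10x Genomics 3′ kit (v3.1). The authors ran Cell Ranger (6.1.0, per the file headers), and the deposited matrices hold its unnormalized UMI counts for each gene and barcode. GRCm39 is the genome of the submitters' processing notes. Whether counting used strand, and whether an aggregation step subsampled reads, is not given in the sources used here. Doublets were kept, with removal of 314 control and 257 mutant barcodes as an alternative.

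UMIs were summed over kept cells and scaled to 1e6 (CPM). Levels have exact Poisson intervals, log2 ratios exact conditional intervals, and shares of cells exact Clopper-Pearson intervals, all at 95% and for counting error only. The interval of the difference between the classical and non-classical log2 ratios came from the variances of the log counts, and a count of 0 is given with the limit of 3 counts. Gates and shares of cells used counts thinned to 5000 UMIs without replacement. The ratio, its interval and the thinning were tested on simulated Poisson counts. These lack the wider spread between cells seen in the mutant library, so they do not show that the intervals cover it. Coordinates came from GENCODE M39, to which 31977 of 32544 gene identifiers matched, and promoter letters from RefSeq. The members, lists and motifs were chosen with earlier results of these data known. All members are named. In each list the highest and lowest log2 ratio at a mean of at least 20 CPM are named, together with Nlrc5, Tap1, Psmb8, Tapbp, Irf1 and H2-Aa. For 6 members the 3 genes with the highest Pearson correlation of log2(CPM + 1) are named, and some items that these rules select are not reported here. Alternatives covered scaling with TMM (edgeR 4.0.16) and median-of-ratios factors (DESeq2 1.42.0), weighting of cells, cell and gene filters, and gates. Python 3.11.15, numpy 2.4.6, scipy 1.17.1, scikit-learn 1.9.0 and R 4.3.3 were used.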

Additional observations from a re-analysis of the deposited data

Results flagged for a closer look

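Within the control library, 5 members were lower in cells of the OC gate than in cells of neither gate, and within the mutant library they were higher. The log2 differences were -0.40 in control and 0.050 in mutant for H2-K1, -0.26 and 0.060 for H2-D1, -0.56 and 0.44 for H2-Q4, -0.40 and 0.26 for H2-T22, and -0.39 and 0.025 for B2m. They were noted because the directions are opposite with counting intervals that exclude 0. The difference between the libraries was not tested, since there is 1 library on each side. The share of all genes that meet the same rule is not given here, so the count of 5 is not read as particular to these members. The mutant values of H2-K1, H2-D1 and B2m turned negative under all 3 other settings of the gates. H2-Q4 turned to -0.083 in mutant with cells thinned to 2000 UMIs and to 0.011 in control with unthinned gates, and H2-T22 to -0.081 in mutant with unthinned gates. The opposite direction was thus lost for all 5 under at least 1 other setting.

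The 202 mutant barcodes that the cell filter left out carried heavy-chain transcript at 5885 CPM (5626 to 6152), above the 2501 CPM (2346 to 2664) of the 186 control barcodes left out. These barcodes entered only the alternative without a cell filter. Both values lie above those of kept cells, 4098 and 1600 CPM.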

How the results depend on the processing

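Over all kept cells, the ratios of mutant over control kept their direction for the sums, B2m and each heavy chain under all alternatives. Scaling moved every gene by one amount, -0.063 (TMM), -0.090 (median of ratios) or -0.107 on the log2 scale (totals without mitochondrial and ribosomal protein genes). In that order the classical log2 ratio was 1.22, 1.20 and 1.18, the non-classical 2.30, 2.28 and 2.26, and B2m 1.53, 1.51 and 1.49. With every cell weighted alike, the classical ratio was 1.30 and the non-classical 2.41. Removing doublets, dropping the cell filter and leaving out the neutrophil, stromal and class II gates kept the 3 ratios within their counting intervals, and the difference of 1.08 stayed within its interval under these 3 and with every cell weighted alike. The scalings cannot change it.

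The contrast of the OC gate with neither gate depended on the gate. In control the classical value was -0.37 with cells thinned to 2000 UMIs, -0.35 with at least 5 UMIs and -0.26 with unthinned gates, and the non-classical value -0.40 with at least 5 UMIs. In mutant, in the same order, the classical value was -0.11, -0.020 and -0.047, and the non-classical 0.043, 0.33 and -0.072. H2-K1 in mutant gave -0.18, -0.028 and -0.065, H2-D1 -0.068, -0.014 and -0.035, and B2m -0.16, -0.063 and -0.066. H2-Q4 in mutant was -0.083 at 2000 UMIs and in control 0.011 with unthinned gates. H2-Q7 in control was -0.38 at 2000 UMIs, and H2-T22 in mutant -0.081 with unthinned gates. The cause was not tested.

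In cells with 3 to 9 interferon-stimulated UMIs the classical ratio was 1.05 at 2000 UMIs and 1.10 without Irf7 and Isg15, and the non-classical 1.63 and 1.92. With 0 to 2 the classical ratio was 1.14 and 1.17 in that order, and the non-classical 2.19 and 2.18. With 10 to 29 they were 1.14 and 1.21, and 1.10 and 1.34. With 30 or more they were 1.78 and 1.80, and 1.60 and 2.10. B2m with 30 or more gave 1.63 and 2.001, above its 1.596 over all cells. That group then held only 4 and 24 control cells. Genes at least 2-fold higher numbered 295, 3159 with no filter beyond 1 UMI and 163 at a mean of 50 CPM. Genes at least 2-fold lower numbered 59, and 2430, 34 and, without mitochondrial and ribosomal protein genes, 90. No paired analysis was possible because each group has 1 library, and for the same reason no library could be left out. Depth limits H2-Q6 and H2-Q7 in control most, with 68 and 460 UMIs.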
